A study of Rattus norvegicus and synthetic construct with 4 samples.

Results

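The promoters of genes for splicing factors and other RNA-binding proteins were represented by 31 synthetic elements among 3378 counted elements in a STARR-seq screen of human islet sequences. An element was a member if its midpoint (hg19, as are all coordinates here) lay within 2 kb of any of 41 listed positions of gene starts, which are given to the kb. A separate list of 39 gene names was matched to the positions by order and known gene locations, which left 2 positions without a name. Counted elements were found at 23 positions, 22 of them at named genes, which held 30 of the 31 members. The members therefore stand for a gene by position alone, and whether an element lies in an exon, an intron or a UTR was not analysed here. A radius of 1 kb gave 30 members and one of 5 kb gave 31. The member farthest from its position was the second element of DDX5, at 1134 bp and a log2 ratio of 1.11, and the nearest element outside lay 10254 bp from the position of SRSF2, at a log2 ratio of 0.10.

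In STARR-seq, a candidate sequence placed in a reporter plasmid drives its own transcription, and activity is read as the RNA it makes per copy of plasmid DNA. The elements, each 198 bp long, had been chosen from 5' ends of transcripts mapped by CAGE in islets, and a random barcode of 16 bases tagged each plasmid. There was 1 library of the input plasmid DNA, and there were 3 RNA libraries of INS1 832/13 cells, a rat insulinoma line used as a beta cell model. Per the labels, 10 ug of the plasmid library was electroporated for each of 3 biological replicates, which were harvested after 24 h. All RNA libraries share the same cell line, plasmid library and time, and no untreated or control sequence group was used here. The promoters were thus read as short human sequences on a plasmid in a rat cell, not at their own place in the genome. Totals were 1079728 counts for the plasmid DNA and 211117, 197554 and 218571 for RNA replicates 1, 2 and 3. The members held 0.933% of the DNA counts and 1.61, 1.67 and 1.65% of the RNA counts.

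Splicing removes introns from precursor messenger RNA and is carried out by the spliceosome. The spliceosome is built from small nuclear ribonucleoproteins (snRNPs), most of them a small nuclear RNA with a ring of Sm proteins. SR proteins bind exons and commonly promote the use of nearby splice sites, while heterogeneous nuclear ribonucleoproteins (hnRNPs) coat new transcripts and often oppose them. These genes are expressed in nearly all cells, and in beta cells splicing regulators shape the transcripts of genes for secretion and survival.

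Coverage of the gene list was partial. No element with paired barcodes or counts lay at 13 named genes (TARDBP, SRSF10, SRSF4, YBX1, HNRNPU, PCBP1, SF3B1, PCBP2, SRSF9, HNRNPM, HNRNPL, SNRNP70 and SRSF6). The same held for 1 of the positions without a gene name. At a further 4 genes (SNRPG, SRSF3, HNRNPA2B1 and SNRPD1) elements were paired with 1 to 3 barcodes but were absent from the deposited counts. Their activity is therefore unknown. Another 4 elements absent from the deposited counts lay at HNRNPA1, SRSF1, RBM39 and HNRNPK, beside counted elements of the same genes.

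The barcodes are the sequences by which activity was read, and those with the most plasmid DNA counts are shown for the strongest pair of members and for the first 2 overlapping elements of STRAP, to let the counts of single plasmids be seen. They are written 5′ to 3′ as deposited, in lower case and with no part marked. The sequences of the elements themselves were not used here.
PPP1R8 barcode 1: accaacaattaactct
PPP1R8 barcode 2: tatcctaatgggtaaa
PPP1R8 barcode 3: aatacactttaaggga
SKIV2L2 barcode 1: tagttcagtagatttt
SKIV2L2 barcode 2: tgttagtgcttcaaca
SKIV2L2 barcode 3: tatcgtaagtagtttc
STRAP first element, barcode 1: gttgttatctggacgg
STRAP first element, barcode 2: gattcgttagttgagg
STRAP first element, barcode 3: tgacaaacggtgcatt
STRAP second element, barcode 1: tcttaagataacaaag
STRAP second element, barcode 2: ctagaacggggggcgg
STRAP second element, barcode 3: ctttattggctgtttg
The PPP1R8 barcodes had 44, 41 and 40 DNA counts. Their RNA counts in replicates 1, 2 and 3 were 80, 77 and 84 for the first, 49, 23 and 37 for the second, and 28, 29 and 33 for the third. Each of these plasmids thus gave RNA in every library. The SKIV2L2 barcodes, with 112, 57 and 44 DNA counts, gave 108, 147 and 84, then 95, 190 and 99, then 35, 19 and 25 RNA counts. The first STRAP element was uneven. Its barcode with 85 DNA counts gave 0, 0 and 2 RNA counts, the one with 77 gave 13, 22 and 25, and the one with 70 gave 12, 3 and 1. On the second STRAP element a barcode with 96 DNA counts gave 10, 1 and 3 RNA counts, and those with 47 and 33 gave 1, 0 and 1 and then 1, 0 and 0.

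A minority of the member elements were called above the library's centre, led by elements of PPP1R8 and SKIV2L2. The centre is the level that TMM normalization sets to a ratio of 1, so activity is relative to the other islet elements and not to an inactive sequence. Of the 31 members, 6 were above the centre in edgeR's quasi-likelihood test with a Benjamini-Hochberg adjusted p under 0.05 over all 3378 elements. These were elements of PPP1R8, SKIV2L2, PRPF38B, SNRPD3 and STRAP and the element at a position without a gene name. That share of 19.4% stood beside 8.88% (300 elements) among all elements tested. Without RNA replicate 2, 193 of all elements and 4 of the members were called. The spread behind the p-values comes from electroporations of the same plasmid library, with dispersion shared across elements. The 1 DNA library has no replicate, so its own error could not be estimated.

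The remaining members lay on either side of the centre. Log2 RNA/DNA was above 0 in 20 of the 31 and below in 11, and its median was 0.28, beside -0.03 over all elements. Library totals in place of TMM moved all log2 ratios by a median of -0.74, and the medians were then -0.46 for the members and -0.77 for all elements. The ratio was above 1 in 3 of 3 RNA libraries for 12 members (38.7%, beside 25.8% of all elements) and below 1 in 3 of 3 for 5 (16.1%, beside 29.4%). No member was below the centre by edgeR, as was none of the 3378 elements. At an unadjusted p under 0.05, 0 members were below and 7 above, beside 26 and 457 of all elements. DESeq2 called 0 members below but gave no adjusted p for 15, and limma-voom called 1, SRSF7, beside 136 of all elements.

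Called members had more barcodes than the others, with a median of 17 against 5. No call was made among the 12 members with 2 to 4 barcodes, where 3.38% of all elements were called. There were 2 calls among 10 members with 5 to 9 barcodes (7.22% of all elements), 1 among 5 with 10 to 19 (12.5%) and 3 among 4 with 20 or more (93 of 423 elements). Since only barcodes with RNA in at least 1 library are in the table, a more active element can also keep more of its barcodes. The plasmid DNA of barcodes without RNA is likewise missing from the ratios, which can raise them, most where RNA is low. The table holds 58.5% of the paired barcodes of called members and 45.3% of those of the others. Barcodes with under 10 DNA counts are absent too, and the size of this effect was not tested.

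Among the factors outside the main splicing families, 3 of 12 elements were called by edgeR (25.0%, beside 8.88% of all elements). Their log2 ratios were above 0 in 6 and below in 6, with a median of -0.01. PPP1R8 had the highest log2 ratio of the members, close to that of 1 element of SKIV2L2. Without the top barcode of each, the order was reversed (3.89 for PPP1R8 and 4.03 for SKIV2L2). PPP1R8 is a nuclear inhibitor of protein phosphatase that associates with the spliceosome. Its element on chromosome 1 from 28157215 to 28157412 had 249 DNA counts over 8 barcodes and 353, 409 and 385 RNA counts in replicates 1, 2 and 3. The normalised RNA/DNA ratios were 12.1, 14.7 and 12.9, a mean of 13.2 ± 1.33 times the centre (SD over n = 3 RNA replicates, each divided by the same DNA library, as for all ratios below). All replicates lay close together and far above 1. The log2 ratio of 3.73 ± 0.39 (SE) had, in edgeR's test, an adjusted p of 1.16e-12 and ranked 18 of the 3378 elements.

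SKIV2L2, the RNA helicase that feeds transcripts to the nuclear exosome for degradation, had 1 element that passed the test and 1 that did not. The element on chromosome 5 from 54603734 to 54603931 had 667 DNA counts over 21 barcodes and gave 1025, 923 and 1080 counts of RNA. The ratios of 13.2, 12.4 and 13.5 averaged 13.0 ± 0.558 times the centre, with a log2 ratio of 3.70 ± 0.28 (adjusted p = 3.96e-19 in edgeR's test). It held rank 19, next to PPP1R8, with a smaller spread between libraries. The other element, from 54603400 to 54603597, began 334 bp lower and shared no sequence with it. Over 4 barcodes it had 101 DNA counts, RNA counts of 2, 20 and 7, and ratios of 0.170, 1.77 and 0.577. A single barcode held 86.2% of these RNA counts, and without it the log2 ratio was -1.96. The ratios lay on both sides of 1 (log2 -0.25 ± 1.79, adjusted p = 0.999 in edgeR's test) and in every library were below those of the element that passed. The mean of log2 ratios with a pseudocount of 0.5 differed by -4.40 (SD of the difference 1.59, n = 3 libraries) and the groups did not overlap. A two-sided exact permutation test over 3 against 3 libraries gave p = 0.1, the smallest it allows, and 0.275 after adjustment over the 11 pairs of elements that share a gene. Both elements of a pair are read in the same libraries, which this test does not use. An exact sign-flip test within libraries, added after seeing the data, cannot go below p = 0.25 and gave that value here.

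STRAP, a subunit of the complex that loads Sm proteins onto small nuclear RNAs, had 4 elements on chromosome 12, tiled at steps of 100 bp, and only the first passed the test. From 16035286 to 16035483, 71 barcodes with 2057 counts of DNA gave 642, 575 and 475 of RNA. The ratios were 2.67, 2.50 and 1.92, a mean of 2.37 ± 0.394, and the log2 ratio was 1.24 ± 0.28 (adjusted p = 0.000443 in edgeR's test). This was a moderate level, at rank 623, read with the most barcodes of any member. The call was lost without RNA replicate 2 (adjusted p = 0.0688).

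Activity was lower in each of the 3 downstream tiles by coordinate, which had fewer barcodes. The element from 16035386 to 16035583, which shares 98 bp with the first, had 320 DNA counts over 9 barcodes, RNA counts of 25, 4 and 11, and ratios of 0.669, 0.112 and 0.286 (mean 0.356 ± 0.285, log2 -1.49 ± 1.36, adjusted p = 0.821 in edgeR's test). The element from 16035486 to 16035683 had 151 DNA counts over 4 barcodes, RNA counts of 4, 2 and 5, and ratios of 0.227, 0.119 and 0.276 (mean 0.207 ± 0.0804, log2 -2.25 ± 1.74). The element from 16035586 to 16035783 had 129 DNA counts over 5 barcodes, RNA counts of 1, 12 and 2, and ratios of 0.0664, 0.833 and 0.129 (mean 0.343 ± 0.426, log2 -1.54 ± 1.78). All 3 were below 1 in 3 of 3 libraries, and none passed the test against the centre. The first element exceeded them by 2.99, 3.38 and 3.29 on the log2 scale with a pseudocount of 0.5 (SDs of the difference 1.20, 0.71 and 1.63, n = 3 libraries), without overlap. Each exact permutation p was 0.1, the smallest possible, and 0.275 adjusted, and the sign-flip p within libraries was 0.25, also the smallest possible. Among the 3 lower tiles themselves the ratios overlapped, with exact permutation p of 0.8 to 0.9 (adjusted 0.900) and differences of -0.09 to 0.39.

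RBM39, an SR-like protein that is a cofactor in splicing and transcription, had a pair of elements on chromosome 20 sharing 98 bp. The first, from 34330009 to 34330206, had 258 DNA counts over 9 barcodes, RNA counts of 50, 38 and 55, and ratios of 1.66, 1.32 and 1.78 (mean 1.59 ± 0.237). The second, from 34330109 to 34330306, had 82 DNA counts over 3 barcodes, RNA counts of 16, 6 and 10, and ratios of 1.67, 0.656 and 1.02 (mean 1.11 ± 0.515). The pair overlapped (difference 0.55 ± 0.51, SD, exact permutation p = 0.3, adjusted 0.660), and the log2 ratios of 0.66 ± 0.90 and 0.16 ± 1.81 did not pass the test against the centre. DDX5, a helicase that remodels RNA in splicing, had elements on chromosome 17 from 62502276 to 62502473 and from 62503036 to 62503233. The first had 161 DNA counts over 4 barcodes, RNA counts of 24, 21 and 4, and ratios of 1.28, 1.17 and 0.207. The second had 53 DNA counts over 2 barcodes, RNA counts of 4, 31 and 4, and ratios of 0.647, 5.24 and 0.628. Replicate 3 was the lowest in the first, while replicates 1 and 3 had equal RNA counts in the second. The ranges of these elements overlapped (log2 -0.18 ± 1.55 and 1.11 ± 1.91, difference -0.96 ± 1.59, SD, exact permutation p = 0.6, adjusted 0.900). SFPQ, which binds RNA and DNA in the paraspeckle, was near the centre with a larger number of plasmids. Its element on chromosome 1 from 35658610 to 35658807 had 14 barcodes, 463 DNA counts and 67, 31 and 43 RNA counts, and ratios of 1.24, 0.600 and 0.773 (mean 0.871 ± 0.331, log2 -0.20 ± 0.80).

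The promoters of spliceosomal snRNP and core factors all had log2 ratios above 0, and 2 of 6 passed the test (33.3%, beside 8.88% of all elements). They had 6 to 16 barcodes. Of all elements, 7.22% of those with 5 to 9 barcodes and 12.5% of those with 10 to 19 passed. The median log2 ratio of the 6 was 1.65 and the lowest 0.78, beside a median of -0.03 for all elements. The ratio exceeded 1 in 3 of 3 libraries for 5 of the 6, and whether the group differs from the other members was not tested. With library totals, or with RNA counts under 5 of a barcode set to 0, none of these 6 turned negative.

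PRPF38B, related to a factor that joins the spliceosome before its activation, had the highest of these. Its element on chromosome 1 from 109234870 to 109235067 had 6 barcodes, 185 DNA counts and 127, 115 and 184 RNA counts. The ratios of 5.88, 5.57 and 8.28 averaged 6.58 ± 1.48 (log2 2.72 ± 0.57, adjusted p = 0.000182 in edgeR's test). Replicate 3 was the highest, and all were well above 1. A single barcode carried 43.9% of its RNA counts, and the call remained without that barcode.

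SNRPD3 encodes a protein of the Sm ring. Its element on chromosome 22 from 24951848 to 24952045 had 13 barcodes, 390 DNA counts and 204, 168 and 322 RNA counts. The ratios were 4.48, 3.86 and 6.88, with a mean of 5.07 ± 1.59, and the log2 ratio was 2.34 ± 0.44 (adjusted p = 2.61e-05 in edgeR's test). Replicate 3 was again the highest.

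The other Sm ring promoters had ratios above 1 on average and did not pass the test. SNRPF on chromosome 12 from 96252645 to 96252842 had ratios of 2.54, 1.48 and 5.46 (mean 3.16 ± 2.06, 7 barcodes, log2 1.66 ± 0.78, adjusted p = 0.277 in edgeR's test). Among the members it alone had an unadjusted p under 0.05 in edgeR and failed the correction, while limma-voom called it (adjusted p = 0.0193). SNRPE on chromosome 1 from 203830653 to 203830850 had ratios of 3.11, 2.38 and 3.96 (mean 3.15 ± 0.790, 6 barcodes, log2 1.65 ± 1.06). SNRPD2 on chromosome 19 from 46195097 to 46195294 had 16 barcodes, 566 DNA counts and 111, 109 and 119 RNA counts. Its ratios of 1.68, 1.73 and 1.75 (mean 1.72 ± 0.0359) varied least of all members, yet the log2 ratio of 0.78 ± 0.53 had an adjusted p of 0.638 in edgeR's test, whose dispersion is shared across elements. SNRPB on chromosome 20 from 2451314 to 2451511 had 10 barcodes, 291 DNA counts and 95, 74 and 28 RNA counts, and replicate 3 lay apart from the others in its ratios of 2.80, 2.28 and 0.801 (mean 1.96 ± 1.04, log2 0.97 ± 0.78).

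None of the hnRNP promoters was called, with 0 of 7 elements past edgeR's threshold (beside 8.88% of all elements) and 0 at an unadjusted p under 0.05. DESeq2 and limma-voom also called 0, though DESeq2 gave no adjusted p for 4 of them. Their log2 ratios ran from -0.82 to 0.60 with a median of 0.16, and those above 0 turned negative with library totals. HNRNPA1, which represses splice sites and shuttles to the cytoplasm, gave the value with the smallest SE. Its element on chromosome 12 from 54674450 to 54674647 had 24 barcodes, 935 DNA counts and 124, 135 and 136 RNA counts, and its ratios were 1.14, 1.29 and 1.21 (mean 1.21 ± 0.0788, log2 0.28 ± 0.45, adjusted p = 0.953 in edgeR's test). All libraries were just above 1. HNRNPD, which binds AU-rich elements and affects RNA decay, had on chromosome 4 from 83295022 to 83295219 ratios of 0.714, 1.25 and 1.66 over 12 barcodes, from 336 DNA counts and 28, 47 and 67 RNA counts (mean 1.21 ± 0.475, log2 0.27 ± 0.86).

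The other hnRNP elements rested on 2 to 7 barcodes, and their libraries disagreed. HNRNPH1, which binds runs of G, had on chromosome 5 from 179050570 to 179050767 ratios of 0.359, 2.95 and 1.25 (mean 1.52 ± 1.32). HNRNPC, which packages nascent transcripts at runs of U, had on chromosome 14 from 21737471 to 21737668 ratios of 0.243, 0.445 and 1.00 (mean 0.564 ± 0.394). HNRNPR on chromosome 1 from 23670693 to 23670890 had 31 DNA counts and 0, 2 and 6 RNA counts, where the floor of 3 counts allows a ratio of up to 0.829 in replicate 1 and the other libraries gave 0.578 and 1.61. None of these elements passed edgeR's test. HNRNPK, which binds runs of C, had 2 elements on chromosome 9 whose starts lay 967 bp apart. The element from 86594444 to 86594641 had 48 DNA counts over 2 barcodes, RNA counts of 1, 4 and 14, and ratios of 0.178, 0.747 and 2.43. A single barcode held 94.7% of its RNA counts, and without it the log2 ratio was -2.65. The element from 86595411 to 86595608 had 122 DNA counts over 6 barcodes, RNA counts of 25, 4 and 9, and ratios of 1.76, 0.294 and 0.614 (difference between the elements 0.18 ± 2.55, SD, exact permutation p = 0.8, adjusted 0.900). The library that was highest for one was not the highest for the other.

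The SR protein promoters were read with 2 or 3 barcodes each, and 0 of 5 elements passed edgeR's test, beside 3.38% of all elements with 2 to 4 barcodes. None had an unadjusted p under 0.05 in edgeR, DESeq2 called 0 and gave no adjusted p for 4, and limma-voom called 1 below the centre. Their log2 ratios spanned -2.81 to 1.78, with SEs of 1.08 to 1.98, and no member with so few barcodes was called by edgeR. SRSF1, the founding SR protein, had 2 elements on chromosome 17 sharing 98 bp. From 56084585 to 56084782 there were 124 DNA counts over 3 barcodes, RNA counts of 25, 53 and 53, and ratios of 1.73, 3.83 and 3.56 (mean 3.04 ± 1.14, log2 1.60 ± 1.08). From 56084685 to 56084882 there were 38 DNA counts over 2 barcodes, RNA counts of 1, 29 and 15, and ratios of 0.225, 6.84 and 3.29 (mean 3.45 ± 3.31, log2 1.78 ± 1.98). Replicate 1 was the lowest for both, and the pair overlapped (difference 0.55 ± 1.66, SD, exact permutation p = 0.8, adjusted 0.900). SRSF2 on chromosome 17 from 74733316 to 74733513 had ratios of 0.0745, 2.18 and 1.23, again lowest in replicate 1.

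SRSF7 and TRA2B had ratios below 1 in all libraries, from totals of only 6 and 4 RNA counts. SRSF7, an SR protein with a zinc knuckle, had on chromosome 2 from 38978370 to 38978567 122 DNA counts over 3 barcodes and 1, 1 and 4 RNA counts. Its ratios were 0.0702, 0.0734 and 0.273 (mean 0.139 ± 0.116, log2 -2.81 ± 1.72, adjusted p = 0.556 in edgeR's test), and the log2 ratio was lower than for any other member. It was the member that limma-voom called below the centre, with an adjusted p of 0.0297. TRA2B binds GAA-rich exonic enhancers, and its element lay on chromosome 3 from 185655662 to 185655859. It had 41 DNA counts over 2 barcodes and 3, 0 and 1 RNA counts. The ratios were 0.627 and 0.203 in replicates 1 and 3, with up to 0.656 allowed by the floor of 3 counts in replicate 2. The log2 ratio of -1.81 ± 1.64 had an adjusted p of 0.814 in edgeR's test, and a pseudocount of 5 gave 0.22.

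The member without a gene name lay on chromosome 1 from 115300513 to 115300710 and was weakly above the centre, with even sums between libraries. Its 46 barcodes held 1406 DNA counts and 321, 322 and 317 RNA counts. The ratios of 1.96, 2.05 and 1.88 averaged 1.96 ± 0.0874 (log2 0.97 ± 0.33, adjusted p = 0.0467 in edgeR's test). Single barcodes were uneven, and 1 of the 46 had 5 or more counts in all 3 RNA libraries. The barcode with 106 DNA counts gave 34, 3 and 20 RNA counts. The call was the least secure of the 6 and did not hold when any of the RNA replicates was left out (adjusted p = 0.0572, 0.175 and 0.117 without replicates 1, 2 and 3).

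The 6 calls differed in how far they held. When barcode counts of 1 to 4 in RNA were set to 0, 2 were called, PPP1R8 and SKIV2L2, and the others had adjusted p-values in edgeR's test of 0.0947 (PRPF38B), 0.0795 (SNRPD3), 0.525 (STRAP) and 0.999 (the element without a gene name). With library totals 4 were called, without STRAP (adjusted p = 0.283) and the element without a gene name (0.726).

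Among the barcodes with counts, those of PPP1R8 and of the called SKIV2L2 element, named SKIV2L2 here, were mostly high in every library. In the uncalled SKIV2L2 element 3 of 4 stayed under 5 counts in every library, with a median barcode ratio of 0.222. The deposited table keeps a barcode only with RNA in at least 1 library, and it holds 8 of the 13 paired barcodes of PPP1R8 and 21 of the 34 of SKIV2L2, so that the others were not analysed here. All 8 counted barcodes of PPP1R8 had 5 or more counts in 3 of 3 RNA libraries, as did 18 of 21 of SKIV2L2 (85.7%), beside 6.43% of all 35153 barcodes. The ratio of single barcodes, over the 3 libraries together, ran from 6.46 to 33.5 with a median of 11.4 for PPP1R8 and from 4.31 to 38.3 with a median of 12.9 for SKIV2L2.

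In SNRPD3, 12 of 13 barcodes reached 5 counts in at least 1 library but only 2 in all 3, and the ratio of single barcodes had a median of 6.04. PRPF38B had 2 of 6 in all 3 libraries, and its barcode ratios ran from 0.278 to 19.9. For STRAP, 49 of 71 barcodes (69.0%) of the first element reached 5 counts somewhere and 4 did so in every library (5.63%). The element without a gene name was similar, with 31 of 46 (67.4%) and 1 (2.17%). The median barcode was at 1.99 and 1.61 times the centre in these, and 48 and 30 of their barcodes were above 1. In the lower STRAP tiles 1 of 9, 0 of 4 and 0 of 5 barcodes were above 1.

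Of the 164 barcodes of the 25 members that were not called, 48.8% reached 5 counts in at least 1 library and 3.05% in 3 of 3, beside 45.2 and 6.43% of all barcodes, and the median ratio of these barcodes was 0.798, beside 0.755. In SNRPF 7 of 7 barcodes reached 5 counts, 5 of them in 1 library only. The 6 called members held 49.2% of the members' plasmid DNA counts and 77.2% ± 1.31 (SD, n = 3) of their RNA counts. Calls were made on these same counts, so the larger RNA share follows from the selection. The barcodes of uncalled members are likewise set beside all barcodes, which include those of called elements.

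By medians, libraries agreed more closely for members with more barcodes. The SD of log2 RNA/DNA between the 3 RNA libraries, with a pseudocount of 0.5, had a median of 0.197 for the called members and 0.964 for the others, beside 0.810 for all elements. A call itself depends in part on agreement between libraries, so these medians are not independent of the calls. By number of barcodes the median SD over the members was 1.48 (2 to 4 barcodes), 0.952 (5 to 9), 0.525 (10 to 19) and 0.0788 (20 or more), beside 1.33, 0.879, 0.560 and 0.347 over all elements. Single members departed from this order, such as PPP1R8 with 8 barcodes (0.142) and SNRPB with 10 (0.957). Whether barcode number or RNA counts set the agreement was not tested. Reads carry no stated molecular identifier, so the counts are not counts of independent molecules and the floors given above cover counting error only.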

How the data were processed

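Per the labels' protocols, elements were cloned into a STARR-seq plasmid and barcoded, and messenger RNA was taken from 3 electroporations. The authors deposited raw counts per barcode (1 DNA and 3 RNA columns) and a table pairing barcodes with elements, per the file headers. Deposited counts were not normalized, judging by their values. For the filter, aligner and read matching, the sources used here give nothing. Every deposited barcode has at least 10 DNA counts and every element at least 2 barcodes. Per the submitters' processing notes, coordinates are hg19. Counts were summed per element and tested as RNA against DNA on all 3378 elements with edgeR 4.0.16 (R 4.3.3; TMM, quasi-likelihood fit, Benjamini-Hochberg at 0.05). SEs are the log2 ratio over the square root of F. Elements of a gene were compared by exact permutation (Python 3.11.15, numpy 2.4.6, pandas 2.3.3). Alternatives used DESeq2 1.42.0 and limma 3.58.1. The element test was tested on simulated data. Gene names were given as a separate list and tied to the positions by list order and known hg19 gene locations. Members, lists and alternatives were chosen with earlier results of these data known. Full values were given for called members, the 5 lowest members with at least 10 barcodes and genes with several elements.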

Additional observations from a re-analysis of the deposited data

How the results depend on the processing

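No paired analysis was possible because the plasmid DNA is 1 library without a replicate number. The number of members above the centre, 6, stayed at 6 with DESeq2 and its size factors, with at least 5 barcodes, without the barcode of each element with the most RNA and under the 3 other distance rules, and was 7 with limma-voom. All elements were called at 12.4% with DESeq2 (419) and at 12.1% with at least 5 barcodes (268 of 2223, with 6 of 19 members). It was 4 with library totals, 2 when barcode RNA counts under 5 were set to 0, and 4 to 5 when an RNA replicate was left out. Over all elements the count was 169 with library totals, 511 with limma-voom, 115 with low counts set to 0 and 193 to 289 without 1 RNA replicate. The median log2 ratio of the members, 0.28, was -0.46 with library totals, -0.32 with low counts set to 0, 0.75 over members with at least 5 barcodes, 0.64 without the top barcodes and 0.25 to 0.60 without 1 replicate.

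Signs changed in members that passed no test. With library totals the log2 ratio was -0.46 for HNRNPD, -0.13 for HNRNPH1, -0.57 for HNRNPK from 86594444, -0.46 for HNRNPA1, -0.51 for SRSF2, -0.07 for RBM39 from 34330009 and -0.58 for RBM39 from 34330109. With low counts set to 0 these were -0.58, -0.01, -0.71, -0.36, -0.32, -0.04 and -0.60. The centre moved by -0.74 and -0.81 in these settings. With limma-voom, HNRNPK from 86594444 was at -0.29 and SRSF2 at -0.56. Without the top barcode, HNRNPR was at 0.18, SFPQ at 0.09, HNRNPK from 86594444 at -2.65, DDX5 from 62502276 at 0.19 and RBM39 from 34330109 at -0.32. When a replicate was left out, values ran from -1.78 to 0.11 for HNRNPR, -0.57 to 0.01 for SFPQ, -0.02 to 0.51 for HNRNPD, -1.41 to 0.21 for SKIV2L2 from 54603400 and -0.32 to 1.04 for HNRNPH1. They ran from -1.11 to 0.64 and from -1.16 to 0.24 for the HNRNPK elements from -0.57 to 0.29 for DDX5 from 62502276 and -0.64 to 1.55 for DDX5 from 62503036, -0.61 to 0.74 for SRSF2, and -0.29 to 0.42 for RBM39 from 34330109. A pseudocount of 5 gave 0.80 for HNRNPR, 0.22 for TRA2B, 0.06 for SKIV2L2 from 54603400 and 0.08 for HNRNPK from 86595411, and the mean over barcodes 0.24 for the last and 0.26 for DDX5 from 62502276. Beyond the settings named, the cause was not tested. Members with 2 to 4 barcodes limit what depth can show.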
